A study of Mus musculus with 10 samples.

Results

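The genes described here are 35 markers of T cells and natural killer (NK) cells in colon tumours of mice with and without Ucp2. They were listed by name, with earlier results of these data known. A probe set named for the gene was found for 33 of the 35, out of 23111 genes tested, and Lck and Tcf7 are given apart because the probe annotation names no probe set for them. The samples were 10 colon tumours of C57BL6/J mice, 5 Ucp2+/+ (WT, replicates 1 to 5) and 5 Ucp2-/- (KO, replicates 6 to 10). Both genotypes received AOM/DSS, the carcinogen azoxymethane together with dextran sodium sulphate, a polymer that injures the colon lining, and tumours of both were taken at week 15 of that protocol. Ucp2 encodes a carrier of the inner mitochondrial membrane. Each tumour was measured on 1 Affymetrix array, and values are log2 signals per probe set. The labels give no age and do not state in which cells Ucp2 was lost. Nor do they tie the samples to separate mice, and the spread behind each p-value may therefore be partly technical.

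T cells recognise antigen with a receptor whose variable chains, alpha and beta in most T cells and gamma and delta in the rest, sit in the membrane together with the CD3 chains, which carry the signal inside. The coreceptors CD4 and CD8 mark helper and cytotoxic T cells, and the kinases Lck and Zap70 and the adaptor Lat pass the signal on. NK cells lack this receptor and share with cytotoxic T cells the granule proteins perforin and granzymes. The colon wall holds T cells both in its epithelium and in the tissue beneath it, as well as innate lymphoid cells, which share some of these genes. In bulk tumour RNA, fewer cells of a type and less RNA per cell cannot be told apart.

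The probe set whose ID carries the gene number of Ucp2 had log2 signals of 10.84, 11.39, 11.19, 11.55 and 11.52 in WT replicates 1 to 5 and of 9.97, 9.73, 9.73, 9.82 and 9.97 in KO replicates 6 to 10. All 5 KO values were under the lowest WT value, with a difference of -1.45 ± 0.13 (SE; limma adjusted p = 0.00576 over all probe sets). Where its probes lie relative to the deleted part of the gene is not known here. Array medians ran from 5.83 to 5.92. The mean log2 signal of 12 epithelial markers, among them Epcam and Muc2, was 10.40 to 10.91 in WT and 10.70 to 10.90 in KO arrays, high in every array. As a guide to background, 95% of 1088 olfactory receptor genes had a mean signal under 5.14. Both genotype means were under it, called near background here, for 10 of the 33 members and for 39.1% of all genes tested.

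Most T and NK cell genes had a little more signal in KO tumours, and the clearest differences were in 3 genes of T cells. Il7r, Trac and Cd3g were 1.79-fold, 1.63-fold and 1.64-fold higher in KO. By limma, 0 of the 33 members passed an adjusted p of 0.05 (adjusted p = 0.910 or more, against 0% of all genes tested). At unadjusted p under 0.05, 3 members were higher in KO, where 2.22% of all genes were, and 0 were lower, where 2.55% of all genes were. All 3 also differed by at least 1.5-fold, as did 0.368% of all genes. The difference was positive in 23 of 33 members and in 42.2% of all genes, with a median of 0.12 over the members and -0.02 over all genes on the log2 scale. In 0 members did every KO array lie above every WT array, which 0.329% of all genes showed, and in 0 did every KO array lie below every WT array, which 0.506% showed.

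The count of 3 higher members rested on which tumours were included. It was 7 without WT replicate 3, 6 without KO replicate 6, 5 when WT replicate 1, WT replicate 4 or KO replicate 10 was left out, and 2 when KO replicate 8 was. The median difference was 0.06 without KO replicate 8 and 0.18 without KO replicate 6.

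**Figure D1:**
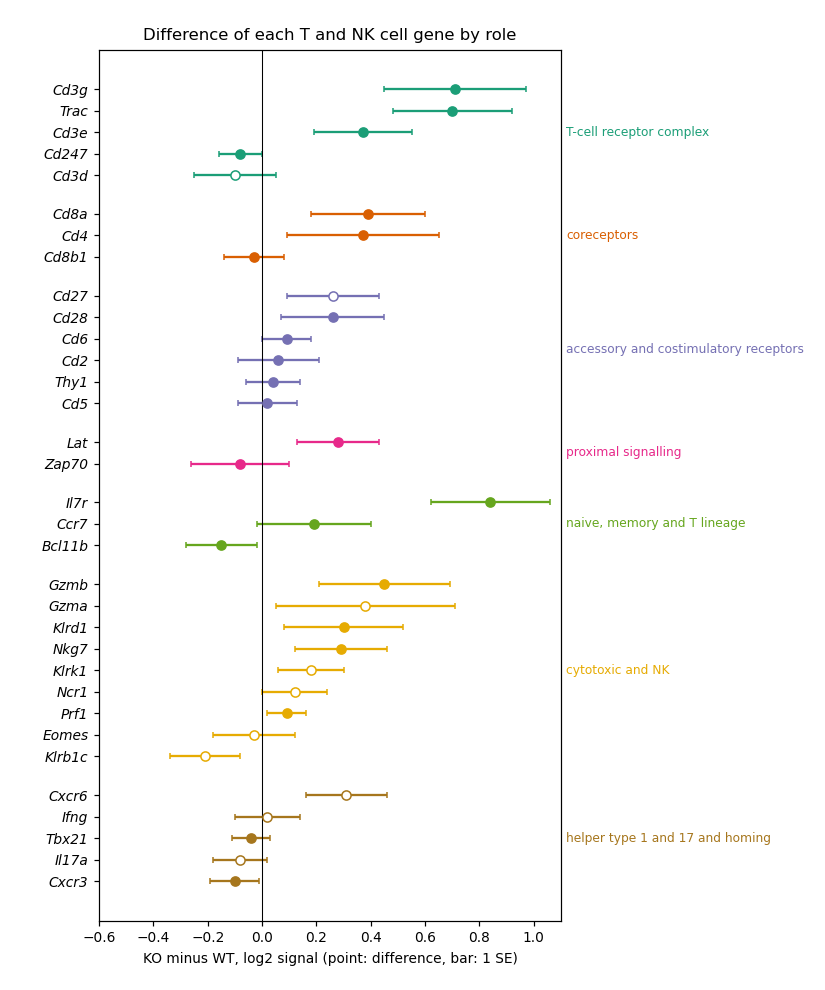
Difference between KO and WT (log2 signal, x axis) for each of the 33 measured genes, grouped by role, with 1 SE as the bar. Open points mark genes whose mean was under 5.14 in both genotypes. Il7r, Cd3g and Trac lie farthest to the right, and genes of the helper group lie on both sides of 0.

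Of the 5 genes of the T-cell receptor complex, 2 passed the unadjusted threshold, Trac and Cd3g. Trac encodes the constant part of the receptor's alpha chain. Its log2 signal was 8.08, 7.27, 8.06, 7.76 and 7.82 in WT replicates 1 to 5 and 7.91, 8.63, 9.01, 8.84 and 8.13 in KO replicates 6 to 10. KO replicates 7 to 10 lay above the highest WT tumour and KO replicate 6 lay among the WT values. The mean was 7.80 ± 0.33 (SD, n = 5) in WT and 8.50 ± 0.47 (n = 5) in KO, a difference of 0.70 ± 0.22 (SE; limma unadjusted p = 0.00919, adjusted p = 0.910).

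Cd3g encodes the CD3 gamma chain. It read 6.71, 5.98, 6.27, 6.40 and 5.32 in WT replicates 1 to 5 and 6.27, 7.04, 7.28, 7.10 and 6.54 in KO replicates 6 to 10. KO replicates 7, 8 and 9 stood above all WT tumours, and WT replicate 5 was the lowest of the 10. The difference was 0.71 ± 0.26 (limma unadjusted p = 0.0204, adjusted p = 0.910), and without KO replicate 8 it was 0.60 (unadjusted p = 0.0519).

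The other chains of the complex did not pass. Cd3e, which encodes CD3 epsilon, had means of 6.25 ± 0.21 in WT and 6.62 ± 0.40 in KO, with 4 of 5 KO tumours above every WT tumour and KO replicate 6 level with the lowest WT tumour (5.98). Its difference of 0.37 ± 0.18 did not pass (limma unadjusted p = 0.0681, adjusted p = 0.910), but was 0.53 without KO replicate 6 (unadjusted p = 0.00256, adjusted p = 0.834). Cd247, the zeta chain that carries most of the receptor's signalling motifs, differed by -0.08 ± 0.08. Cd3d, which encodes CD3 delta, read 5.27, 4.87, 5.52, 4.98 and 4.84 in WT and 4.60, 5.05, 5.06, 5.02 and 5.24 in KO, with both means near background.

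Cd3g and Cd3d are neighbours transcribed in opposite directions from starts 1355 bases apart in RefSeq, and they are printed here with Il7r, the member with the smallest p, because Cd3g passed the unadjusted threshold while its neighbour was near background. The sequences are the 250 bases before each RefSeq start (GRCm38.p6), 5′ to 3′ on the gene's strand: chr9:44980432-44980681 (minus strand) for Cd3g, chr9:44981536-44981785 (plus strand) for Cd3d and chr15:9529877-9530126 (minus strand) for Il7r. Capitals mark matches on either strand to 3 motifs related to factors known in lymphocytes, TGNGGT (a loosened RUNX core), CANNTG (E-box) and GGAAGT (ETS). The RUNX core itself has C or T at the N, and the stretches marked for it here, ACCTCA and ACCCCA, do not, so they match the loosened form only.
Cd3g: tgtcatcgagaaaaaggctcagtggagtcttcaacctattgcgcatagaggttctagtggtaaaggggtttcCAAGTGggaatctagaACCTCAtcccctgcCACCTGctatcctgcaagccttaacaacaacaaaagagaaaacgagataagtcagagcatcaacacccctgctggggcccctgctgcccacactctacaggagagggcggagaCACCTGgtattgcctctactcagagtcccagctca
Cd3d: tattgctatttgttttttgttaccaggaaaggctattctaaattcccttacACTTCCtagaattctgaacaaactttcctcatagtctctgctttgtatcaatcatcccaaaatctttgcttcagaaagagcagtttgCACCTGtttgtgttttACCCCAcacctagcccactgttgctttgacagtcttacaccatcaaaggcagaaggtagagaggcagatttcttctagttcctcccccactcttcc
Il7r: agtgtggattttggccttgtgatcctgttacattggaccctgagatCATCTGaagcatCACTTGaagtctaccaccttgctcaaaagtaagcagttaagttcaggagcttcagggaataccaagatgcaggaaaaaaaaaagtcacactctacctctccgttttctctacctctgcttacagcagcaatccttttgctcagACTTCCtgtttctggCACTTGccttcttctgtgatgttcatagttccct
The Cd3g window held 1 loosened RUNX, 3 E-box and 0 ETS matches, and the Cd3d window 1 of each. The Il7r window held 0 loosened RUNX, 3 E-box and 1 ETS matches. None of the matches overlapped. Among 32851 windows of this length before RefSeq starts, 40.1% held the loosened RUNX form, 66.2% the E-box and 19.7% the ETS motif, so such matches are common. The promoter table held 26 of the 35 members and none for Trac.

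Whether 2 genes differed in their response was tested on the difference of their log2 signals within each array, with exact two-sided permutation tests over 252 assignments for 6 pairs. The pairs were chosen with the differences of Trac, Il7r and Cd3g known, so these p-values are not independent evidence. Cd3g minus Cd3d was 1.44, 1.11, 0.75, 1.42 and 0.48 in WT and 1.66, 1.99, 2.22, 2.08 and 1.30 in KO. Since Cd3d was near background, this value carries mostly the signal of Cd3g and cannot show how Cd3d responded. It was higher by 0.81 ± 0.25 (SE) in KO, with 4 of 5 KO tumours above every WT tumour (exact permutation p = 0.0238, adjusted over 6 pairs 0.0476). The call was lost without any of 9 of the 10 arrays (adjusted p up to 0.111) and after quantile normalization (adjusted p = 0.0952), with values of 0.67 to 0.95.

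**Figure D2:**
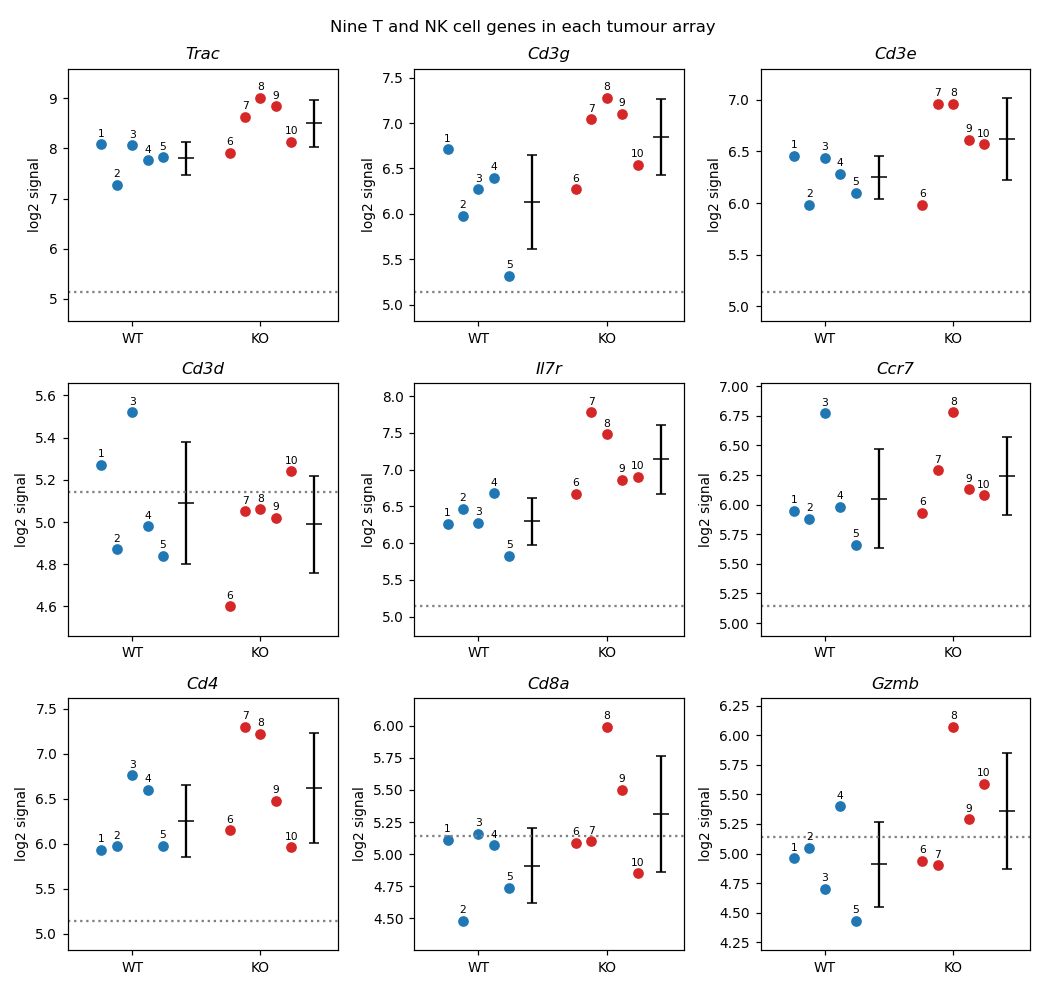
Log2 signal (y axis, own scale in each panel) of 9 members in each WT (blue) and KO (red) array, numbered by replicate, with the mean and SD over 5 arrays as the black bar. The dotted line is the guide to background at 5.14. KO replicates 7 and 8 are above all WT arrays for Trac, Cd3g, Cd3e, Il7r and Cd4, and KO replicate 6 is among the WT arrays for Trac, Cd3g, Il7r and Cd4.

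Of the coreceptor genes, Cd4 and Cd8a read higher in part of the KO tumours, Cd8b1 did not, and none passed. Cd4, the coreceptor of helper T cells and also present on some myeloid cells, was 5.93, 5.97, 6.76, 6.60 and 5.98 in WT and 6.15, 7.30, 7.22, 6.48 and 5.96 in KO. KO replicates 7 and 8 lay above all WT tumours, and the difference was 0.37 ± 0.28 (limma unadjusted p = 0.215, adjusted p = 0.910), or 0.20 without the first and 0.22 without the second of them. Cd8a, the alpha chain of CD8, found on cytotoxic T cells and on some dendritic cells, was 5.11, 4.48, 5.16, 5.07 and 4.74 in WT and 5.09, 5.10, 5.99, 5.50 and 4.85 in KO. Its highest values were in KO replicates 8 and 9, and the difference was 0.39 ± 0.21 (unadjusted p = 0.0887, adjusted p = 0.910). It was 0.22 without KO replicate 8, and it passed the unadjusted threshold without KO replicate 10 (0.51, limma unadjusted p = 0.0345) and with array weights (0.47, unadjusted p = 0.0495). Its WT mean of 4.91 is under the guide to background. Cd8b1, the beta chain of CD8, differed by -0.03 ± 0.11.

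KO replicate 7 was thus high in Cd4 and not in Cd8a. Cd4 minus Cd8a did not differ between genotypes beyond the spread of the tumours (difference -0.02 ± 0.27, exact permutation p = 0.952). Its value in KO replicate 7, 2.20, was the highest of the 10 arrays, and without that array the difference was -0.24.

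Accessory receptors differed little between genotypes. All 6 had positive differences with a median of 0.07, and 0 reached an unadjusted p of 0.05. Cd28, the receptor that gives T cells their second activating signal, was 5.56, 5.54, 6.10, 5.50 and 5.28 in WT and 5.55, 6.42, 6.03, 5.78 and 5.51 in KO. The groups overlapped, with KO replicate 7 alone above the WT range, and the difference was 0.26 ± 0.19, or 0.12 without KO replicate 7 and 0.39 without WT replicate 3 (limma unadjusted p = 0.04997). Cd27, a costimulatory receptor of T and memory B cells, was 3.92, 3.58, 4.42, 3.96 and 3.73 in WT and 3.86, 4.56, 4.34, 4.10 and 4.05 in KO, all under the guide to background. It passed the unadjusted threshold when WT replicate 3 was left out (limma unadjusted p = 0.0215). The adhesion receptor Cd2, the inhibitory receptor Cd5, its relative Cd6 and Thy1, a surface protein also made by fibroblasts and neurons, differed by 0.02 to 0.09.

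The signalling genes differed in sign, and neither passed. Lat, the adaptor phosphorylated by Zap70, was 6.11, 5.82, 6.38, 5.93 and 5.39 in WT and 6.06, 6.27, 6.31, 6.15 and 6.25 in KO. The KO values lay inside the WT range, WT replicate 5 was lowest, and the difference was 0.28 ± 0.15 (limma unadjusted p = 0.0913, adjusted p = 0.910). Leaving out WT replicate 5 gave 0.15, and leaving out WT replicate 3 gave 0.40 (limma unadjusted p = 0.0123). Zap70 was 5.98, 6.85, 6.20, 5.75 and 6.47 in WT and 6.35, 6.09, 5.88, 6.20 and 6.32 in KO, again inside the WT range, with a difference of -0.08 ± 0.18. The unnamed probe set with the gene number of Lck ranged from 5.42 to 5.87 in WT and from 5.50 to 5.74 in KO, a difference of 0.08 ± 0.10. Lat, Nkg7 and Ncr1 are the members on chromosome 7, which also carries Ucp2.

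Among genes of naive and memory T cells, Il7r alone passed the unadjusted threshold. Il7r encodes the alpha chain of the interleukin-7 receptor, a survival receptor of naive and memory T cells and of innate lymphoid cells. It was 6.26, 6.47, 6.28, 6.68 and 5.83 in WT and 6.67, 7.78, 7.48, 6.86 and 6.90 in KO. KO replicates 7 to 10 lay above every WT tumour and KO replicate 6 just under the highest. The difference of 0.84 ± 0.22 had the smallest p of the members (limma unadjusted p = 0.0031, adjusted p = 0.910) and was 0.68 to 0.95 under the 18 alternatives.

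Ccr7, the chemokine receptor that takes naive and central memory T cells and dendritic cells to lymphoid tissue, was 5.95, 5.88, 6.77, 5.98 and 5.66 in WT and 5.93, 6.29, 6.78, 6.13 and 6.08 in KO. WT replicate 3 and KO replicate 8 were level at the top, and the difference was 0.19 ± 0.21. Without WT replicate 3 it was 0.37 (limma unadjusted p = 0.0398, adjusted p = 0.849), without WT replicate 5 0.10 and without KO replicate 8 0.06. The 10 measured B-cell markers, of which 6 had a mean over the 10 arrays under the guide to background, also had their highest mean level in WT replicate 3 (7.25, against 4.58 for the lowest WT array and 4.98 to 6.06 in KO), and the part of B-cell tissue in the Ccr7 value was not tested.

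Il7r minus Ccr7 was higher in KO by 0.64 ± 0.26, with 4 of 5 KO tumours above every WT tumour (exact permutation p = 0.0159, adjusted over 6 pairs 0.0476). It was 0.46 without WT replicate 3, and the call was lost without any of 9 of the 10 arrays (adjusted p up to 0.111). Bcl11b, a transcription factor that fixes T-cell identity and is also made in other tissues, had a negative difference that did not pass. It was 7.23, 7.49, 7.30, 7.21 and 7.26 in WT and 7.46, 6.87, 6.89, 7.09 and 7.42 in KO, so that KO replicates 7, 8 and 9, which had the highest Trac signal, had the lowest Bcl11b signal. Its difference was -0.15 ± 0.13. The unnamed probe set with the gene number of Tcf7, a transcription factor of naive T cells and of Wnt signalling, differed by -0.03 ± 0.21 at means of 8.80 in WT and 8.77 in KO.

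**Figure D3:**
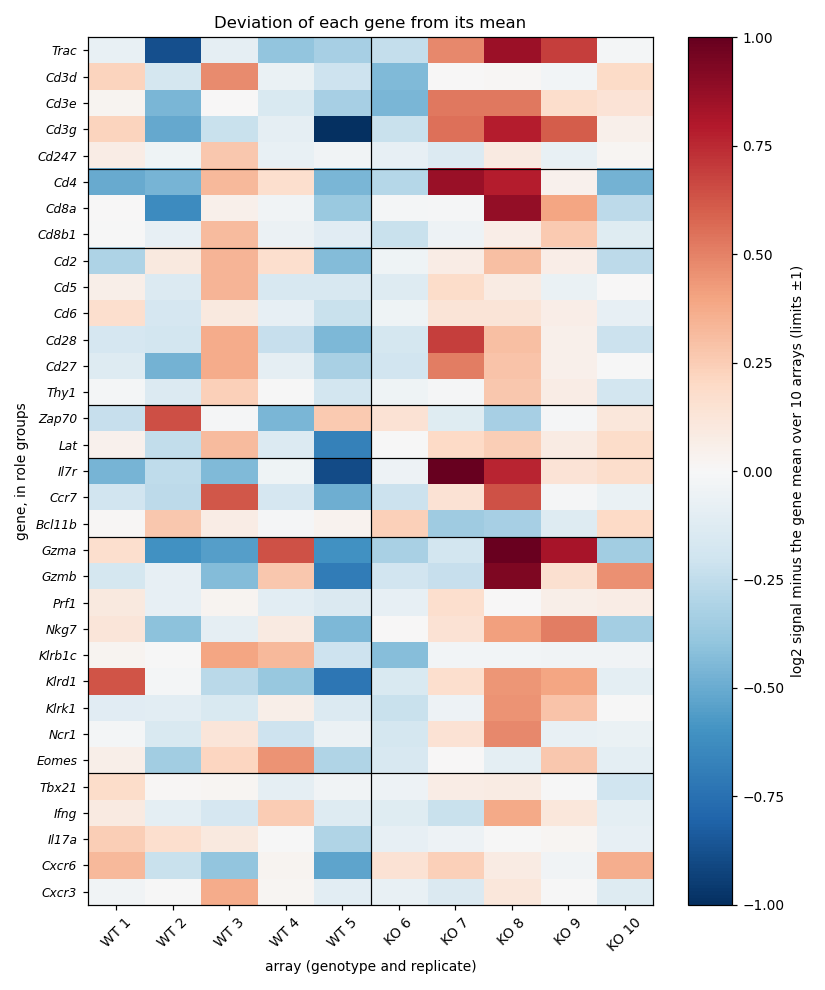
Log2 signal of each member minus its mean over the 10 arrays (colour, red above and blue below, limits ±1) by array, in the order of the role groups. KO replicate 8 holds the highest value of 11 members and WT replicate 5 the lowest of 15.

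Cytotoxic and NK genes were dim. Of 9, 6 had a mean over the 10 arrays under the guide to background, 7 had positive differences and 0 reached an unadjusted p of 0.05 in either direction. Gzmb, a granule protease of killer cells, was 4.96, 5.05, 4.70, 5.40 and 4.43 in WT and 4.94, 4.90, 6.07, 5.29 and 5.59 in KO. KO replicates 8 and 10 were above all WT tumours, and the difference was 0.45 ± 0.24 (limma unadjusted p = 0.0839, adjusted p = 0.910). The difference was 0.27 without KO replicate 8 and passed, at 0.56 to 0.57, when WT replicate 4, KO replicate 6 or else KO replicate 7 was left out (limma unadjusted p = 0.0366, 0.0474 and 0.0406). Nkg7, a granule membrane protein of the same cells, was 5.69, 5.16, 5.48, 5.66 and 5.12 in WT and 5.57, 5.71, 5.98, 6.08 and 5.23 in KO. KO replicates 7, 8 and 9 exceeded the WT range, KO replicate 7 by little, with a difference of 0.29 ± 0.17 that was 0.42 without KO replicate 10 (limma unadjusted p = 0.0217).

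Prf1, the pore-forming perforin, varied least of the group in KO, with means of 6.18 ± 0.10 in WT and 6.27 ± 0.09 in KO and a difference of 0.09 ± 0.07. Klrd1, a subunit of NK receptors also known as CD94, differed by 0.30 ± 0.22, and its highest value, 6.02, was in WT replicate 1, without which the difference was 0.50 (limma unadjusted p = 0.0142). Gzma, the NK receptor genes Klrb1c, Klrk1 and Ncr1, and Eomes, a transcription factor of killer cells, had means under 5.14 in both genotypes, from 3.80 to 4.90 in WT and from 3.93 to 4.69 in KO. Gzma reached 5.25 and 5.09 in KO replicates 8 and 9 and 4.90 in WT replicate 4, against 3.66 to 4.43 in the other 7 tumours. Trac minus Prf1 was higher in KO by 0.62 ± 0.23 (exact permutation p = 0.0159, adjusted over 6 pairs 0.0476), a call lost without any of 8 of the 10 arrays (0.48 to 0.73) and after quantile normalization (adjusted p = 0.0952). Trac minus Gzmb and Trac minus Gzma did not differ beyond the spread of the tumours (0.25 ± 0.33 and 0.32 ± 0.30, exact permutation p = 0.460 and 0.341), and ranged from 0.09 to 0.41 and from 0.11 to 0.48 with single arrays left out. Gzma was near background and the WT mean of Gzmb was under the guide, so these values cannot show whether the genes respond alike.

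Helper cytokines and their regulators showed no shared direction. Of 5 members, 2 differed upwards and 3 downwards, with a median of -0.04. Cxcr6, a chemokine receptor of tissue-resident T and innate lymphoid cells, was 5.28, 4.73, 4.56, 4.98 and 4.43 in WT and 5.10, 5.19, 5.04, 4.92 and 5.32 in KO. The KO values were close together, all in the upper part of the WT range or just above it, and both means were under the guide to background (limma unadjusted p = 0.0595, adjusted p = 0.910). Under 5 of its 17 alternatives the unadjusted p was under 0.05, with the smallest, 0.0046, without WT replicate 1. Cxcr3, the receptor for chemokines induced by interferon gamma, was 5.28, 5.31, 5.69, 5.34 and 5.21 in WT and 5.24, 5.17, 5.43, 5.31 and 5.19 in KO, with a difference of -0.10 ± 0.09. Tbx21, the transcription factor of type 1 helper cells, differed by -0.04 ± 0.07. The cytokine genes Ifng and Il17a had means of 4.30 and 4.57 in WT and 4.32 and 4.49 in KO, near background.

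Single tumours held many of the extreme values. KO replicate 8 had the highest value in 11 of 33 members, against 7.96% of all genes, and WT replicate 3 in 8, against 15.1% of all genes. WT replicate 5 had the lowest value in 15 of 33 members, against 12.6% of all genes. WT replicate 2 had it in 5 (9.42% of all genes), KO replicate 6 in 4 (8.26%) and KO replicate 7 in 4 (14.2%). The mean level of B-cell, plasma cell, lymphoid follicle, macrophage and dendritic cell, epithelial and smooth muscle markers was also lowest in WT replicate 5. That of neutrophil, mast cell, fibroblast and endothelial markers was not. The mean deviation of the 5 receptor complex genes from their own means was 0.46 in KO replicate 8, 0.29 in KO replicate 7, 0.27 in KO replicate 9, 0.07 in KO replicate 10 and -0.29 in KO replicate 6. In WT it ranged from -0.41 in replicates 2 and 5 to 0.09 in replicates 1 and 3. The same measure over the 9 cytotoxic and NK genes was 0.40 in KO replicate 8 and 0.27 in KO replicate 9, and 0.02 in KO replicate 7, which was among the highest for receptor genes.

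How closely the genes followed Trac from tumour to tumour was described by correlations over the 10 arrays for 8 partner genes. Cd3e (Pearson r = 0.88, permutation p = 0.00107, adjusted 0.00428; Spearman rho = 0.94, permutation p = 0.00016), Cd8a (r = 0.87, permutation p = 0.00107, adjusted 0.00428; rho = 0.78, permutation p = 0.0102) and Cd3g (r = 0.82, permutation p = 0.00384, adjusted 0.0102; rho = 0.88, permutation p = 0.00154) rose and fell with Trac. Without WT replicate 2 and KO replicate 8, the arrays farthest from the median of Trac, r was 0.78, 0.68 and 0.77, and the adjusted p of 0.0907, 0.162 and 0.0907 (exact permutation over 8 arrays) missed the threshold, so the calls, though not the size of r for Cd3e and Cd3g, needed those arrays. With each genotype's mean subtracted, r was 0.83 for Cd3e, 0.84 for Cd8a and 0.67 for Cd3g (exact permutation within genotypes, adjusted p = 0.0242, 0.0242 and 0.108).

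Il7r and Cd4 were less close to Trac. For Il7r, r was 0.67 (permutation p = 0.0329, adjusted 0.0533; rho = 0.64, permutation p = 0.0545) and 0.31 with genotype means subtracted. For Cd4, r was 0.68 (permutation p = 0.0333, adjusted 0.0533; rho = 0.37, permutation p = 0.296). Gzmb (r = 0.48, rho = 0.35), the B-cell gene Ms4a1 (r = 0.36, rho = 0.41) and the epithelial gene Epcam (r = -0.29, rho = -0.33) showed no relation to Trac beyond the spread (permutation p from 0.160 to 0.426 for r and from 0.248 to 0.351 for rho).

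**Figure D4:**
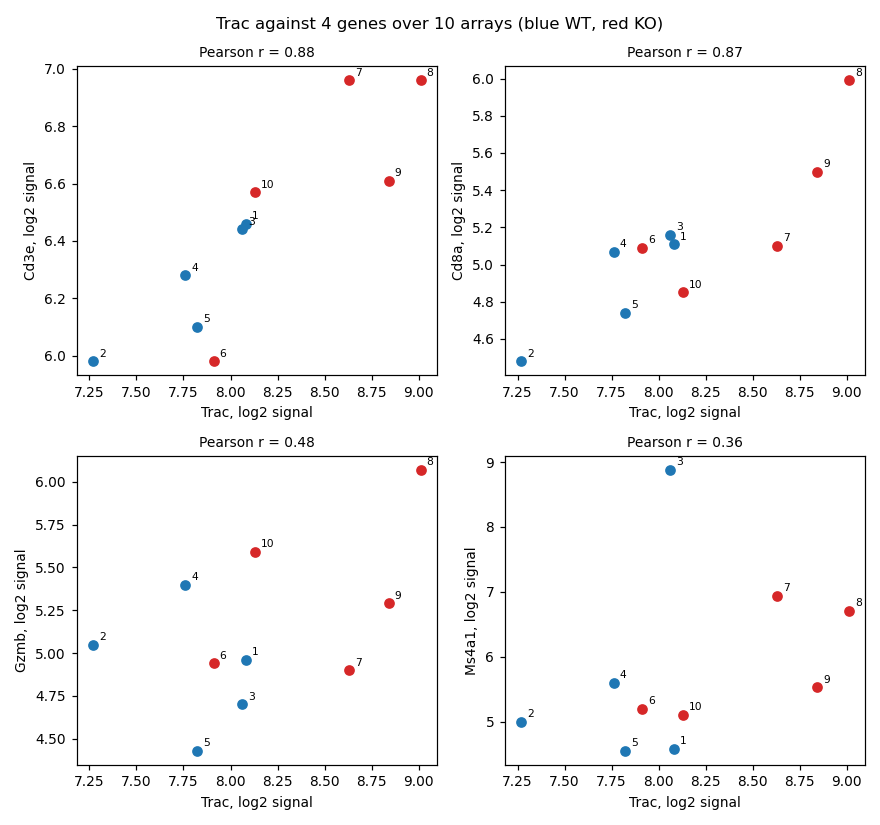
Log2 signal of Trac (x axis) against Cd3e, Cd8a, Gzmb and Ms4a1 (y axes) in the 10 arrays, numbered by replicate, WT in blue and KO in red. Cd3e and Cd8a rise with Trac, with WT replicate 2 at the low end and KO replicate 8 at the high end, while WT replicate 3 lies far above the other arrays in Ms4a1.

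Further genes known in these cells, in 6 lists, were higher in KO where they passed the unadjusted threshold. Several of them are made by myeloid cells too, so their count is not one of T and NK cell genes alone. At an unadjusted p under 0.05, 14 of 92 measured genes were higher in KO and 0 were lower, while by limma 0 passed after adjustment. Over all genes tested, the shares at that threshold were 2.22% higher and 2.55% lower, against which the list counts here are read. Among 6 constant genes of the other receptor chains, 2 were higher, the gamma chain genes Trgc4 (0.79 ± 0.30) and Trgc1 (0.76 ± 0.29). Their WT means, 5.09 and 4.85, are under the guide to background. Whether the probes tell the gamma chain genes apart was not tested. The beta chain constant genes did not pass, with differences of 0.30 ± 0.22 for Trbc1 and -0.04 ± 0.13 for Trbc2, which was bright in both genotypes (means 9.01 in WT and 8.97 in KO). The gamma genes Trgc2 and Trgc3, the latter near background, did not pass either. Trgc4 and Trgc1 were both highest in KO replicate 7 and lowest in WT replicate 5. The count of 2 was 0 when WT replicate 5 or KO replicate 7, 8 or 10 was left out or arrays were weighted. It was 1 when WT replicate 3 was left out.

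Of 20 receptor signalling partners, 3 were higher at unadjusted p under 0.05, the adaptor Lcp2 (0.37 ± 0.12), the Ras activator Rasgrp1 (0.31 ± 0.13) and the integrin Itgal (0.33 ± 0.15). Myeloid cells also make Lcp2 and Itgal. The count of 3 was 7 when WT replicate 3 was left out. It was 1 when any of WT replicates 2 and 5 and KO replicates 7, 8 and 10 was left out or the epithelial covariate was added. Of 17 activation and checkpoint receptors, 15 had positive differences and 4 were higher. These 4 were led by Havcr2 (0.42 ± 0.14), which macrophages make too, the costimulatory receptor Icos (0.42 ± 0.17) and the inhibitory receptor Pdcd1 (0.26 ± 0.11). The WT mean of Pdcd1, 4.97, is under the guide to background. The count of 4 was 7 without KO replicate 6 and 1 without WT replicate 5 or with the epithelial covariate. It was 2 when any of KO replicates 7, 8 and 9 or dim genes were left out. Of 13 genes of naive and memory state and recirculation, 0 were higher and 0 lower, with a median of 0.06 and the integrin gene Itgae first (0.21 ± 0.12). In this list 2 were higher when WT replicate 3 was left out and 1 when WT replicate 2 was.

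Of 17 cytotoxic and NK genes, 3 were higher, the signalling adaptors Fcer1g (0.48 ± 0.12) and Tyrobp (0.32 ± 0.10), which macrophages also make, and Sh2d1b1, whose means of 4.29 and 4.77 were near background. Of 19 helper and innate lymphoid genes, 2 were higher, the regulatory T-cell factor Foxp3 (0.48 ± 0.15) and the transcription factor Maf (0.42 ± 0.15), which macrophages make too. Next by p in that list was the interleukin-18 receptor gene Il18r1 (0.33 ± 0.16), which did not pass and whose WT mean of 4.85 is under the guide to background. The count of 2 was 4 without WT replicate 3 or KO replicate 6 and 6 after quantile or cyclic loess normalization.

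Markers of other cell types differed beside these genes. Macrophages and dendritic cells had 13 measured markers, and at the unadjusted threshold KO tumours had more of 8 and less of 0 (2.22% and 2.55% over all genes), while 0 passed after adjustment by limma. They were led by the complement gene C1qc (0.46 ± 0.10), the integrin Itgax (0.37 ± 0.09) and the complement gene C1qb (0.60 ± 0.14), and 3 of the 13 had a mean under the guide to background. Their mean level was 6.67 to 6.82 in WT and 6.83 to 7.25 in KO, so the groups did not overlap, though KO replicate 6 and WT replicate 2 nearly met. KO replicates 7 and 8, high in Trac, Cd3g and Il7r, were also the highest in these markers (mean deviations 0.36 and 0.26), and the part of this in the T-cell gene differences was not tested.

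Of the other lists, 1 of 8 neutrophil markers was higher at the unadjusted threshold, Csf3r, a growth factor receptor (0.47 ± 0.20), ahead of Cxcr2 (0.59 ± 0.27) and Ly6g (0.36 ± 0.20), which did not pass. The neutrophil markers had no shared direction, with 4 positive and 4 negative differences and a median of 0.02. Of 7 fibroblast markers 1 was lower, the collagen gene Col1a1 (-0.25 ± 0.10), ahead of Lum (0.26 ± 0.20) and Dpt (0.40 ± 0.34), which did not pass. The WT mean of Lum, 5.09, is under the guide to background. None of the 10 B-cell, 9 plasma cell, 8 lymphoid follicle, 8 mast cell, 12 epithelial, 8 smooth muscle and 7 endothelial markers passed in either direction. Smooth muscle markers were positive in 8 of 8, with levels of 7.16 to 8.01 in WT and 7.20 to 8.65 in KO, and KO replicate 7 was the highest. Mast cell markers were also positive in 8 of 8, with the higher median difference (0.74, against 0.40 for smooth muscle) and levels of 5.65 to 6.87 in WT and 5.93 to 7.62 in KO. Cpa3, a mast cell protease, differed most of them (1.04 ± 0.49, limma unadjusted p = 0.0603, adjusted p = 0.910). B-cell levels were 4.58 to 7.25 in WT and 4.98 to 6.06 in KO.

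**Figure D5:**
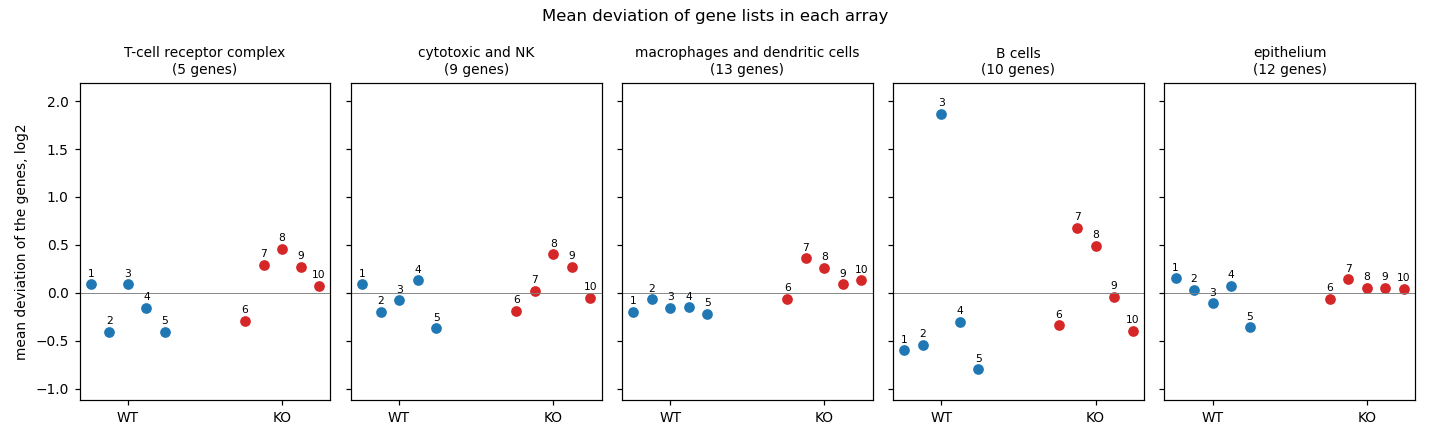
Mean deviation of the genes of 5 lists from their own means (log2, y axis) in each array, numbered by replicate, WT in blue and KO in red. Each KO array is above each WT array for macrophages and dendritic cells, the groups overlap in the other lists, and WT replicate 3 stands at 1.87 for B cells.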

How the data were processed

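Tumour RNA, amplified along whole transcripts and labelled with biotin, was hybridised to 1-colour Affymetrix arrays, per the labels' protocols. The authors deposited 1 log2 value per probe set and array. RMA and Partek are named in the submitters' processing notes, with versions not given in the sources used here, and base 2 was inferred from the value range. RMA equalises arrays and compresses differences of dim genes, and no detection call was used here.

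The table held 23747 probe sets, of which 636 are unnamed in the platform annotation and 23111 carry 1 symbol each. Lck, Tcf7 and Ucp2 were read from unnamed probe sets by the RefSeq gene number in the ID and fitted over all probe sets. KO was compared with WT by limma 3.58.1 (lmFit, eBayes; R 4.3.3) without covariates, with Benjamini-Hochberg adjustment over all genes, after a check on simulated data. Correlations used 100000 resamples. Exact tests used 252 assignments, so no p can be under 0.00794. The number of arrays limits the precision. Array pairs correlated at 0.964 to 0.993 and 0 of 45 held identical values.

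Members and lists were chosen with earlier results of these data known. Values in each array are given for members at unadjusted p under 0.05 and for the 2 of each role with the smallest p, besides Cd3d and Ccr7, added as partners in tested pairs. Of other lists up to 3 genes by p are named where any passed, and Trbc1, Trbc2, Trgc3, Itgae and Cpa3 were named after their values were seen. Means under 5.14 in both genotypes were called near background and given no fold. The relation of Trac with Ms4a1 was added after the data were seen, and 1 planned relation is not reported here. Alternatives left out each array or dim genes, rescaled arrays, changed the variance model, added an epithelial covariate or took all probe sets.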

Additional observations from a re-analysis of the deposited data

Results flagged for a closer look

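Dixon's test was run in 66 groups of 5 arrays (33 members in 2 genotypes), where chance flags about 1 group in 20, or 3.3 groups. Here 1 array stood far from the other 4 in 5 groups, a count near that. WT replicate 3 was the high array in 3 of them, with 6.77 in Ccr7 (the others 5.66 to 5.98), 5.72 in Cd8b1 (5.29 to 5.40) and 5.69 in Cxcr3 (5.21 to 5.34). This array also had the highest B-cell level. WT replicate 4 had 4.13 in Klrk1 (the others 3.92 to 3.97) and KO replicate 6 had 4.37 in Klrb1c (4.76 to 4.77), both near background.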

How the results depend on the processing

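Il7r and Trac kept a positive difference and an unadjusted p under 0.05 under all 18 alternatives, and Cd3g under 17 of 18 (not without KO replicate 8). Of the 33 members, 24 kept their sign under every alternative run for them. With single arrays left out, members higher at unadjusted p under 0.05 numbered 2 to 7 and members lower 0 to 2 (2 without WT replicate 5), genes over the adjusted threshold 0 to 2, and genes at unadjusted p under 0.05 735 to 1376, against 1103 (735 without KO replicate 7). Genes over the adjusted threshold, 0 in the fit as reported, numbered 2 with dim genes left out, 1 with an intensity trend and robust estimation, 1 with the epithelial covariate and 3 over all probe sets, and 0 members passed under any of the 18. Leaving out dim genes left 638 genes at unadjusted p under 0.05 of 13907, and 15 positive members of the 21 still tested. The pairs ranged from 0.48 to 0.73 (Trac against Prf1), 0.46 to 0.76 (Il7r against Ccr7) and 0.67 to 0.95 (Cd3g against Cd3d) with single arrays left out. After quantile normalization the first and the third were 0.60 and 0.77 and were not called. The correlations of Trac with Cd3g, Cd3e and Cd8a were 0.77, 0.78 and 0.68 without the 2 extreme arrays, and that with Cd3g was 0.67 with genotype means subtracted, all past the adjusted threshold no longer. No paired analysis was possible because WT and KO replicates share no number. Low signal limits the 10 members near background.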
